A study of Homo sapiens with 8 samples.

Results

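The genes described here are 49 genes of DNA replication and mitosis, matched by gene symbol to a given list and divided into 25 genes of S phase and of entry into it, and 24 genes of G2 and mitosis. All 49 were found among the 19770 genes in the files, and all 49 were among the 15122 genes tested, so the filter on low values removed none. They were measured by RNA-seq in HEK293T cells, a human embryonic kidney line that carries the SV40 large T antigen, a viral protein that binds p53 and the RB family of cell cycle repressors. There were 4 groups of 2 libraries, each made 72 h after transfection. The control group received dCas9, a nuclease-inactive Cas9, and MCP-mCherry, in which the MS2 coat protein that docks on the MS2 loops of a gRNA carries a fluorescent protein and no activator. The CRISPR-DREAM (DREAM) group received dCas9 and MCP-MSN, in which the coat protein carries activation domains of human transcription factors. The SAM group received dCas9-VP64 and MCP-p65-HSF1. In the dCas9-VPR group the activators VP64, p65 and Rta are fused to dCas9 itself. All 4 groups, the control included, received pooled gRNAs against *HBG1* and *HBG2*, with MS2 loops in every group but dCas9-VPR. By the study's general transfection protocol, the 2-plasmid systems were given at 187.5 ng of each plasmid and dCas9-VPR at 375 ng, so that in every comparison of the dCas9-VPR group the effector, the gRNA scaffold and the plasmid make-up cannot be told apart. The effectors were transfected transiently and no sort of transfected cells is described for RNA-seq, so a library holds RNA of all cells in the culture. The labels number 2 replicates per group without saying whether they were separate cultures, so the p-values below measure the spread between these libraries, which may be technical. The DREAM system here is an activator and is unrelated to the repressor complex of DP, RB-like, E2F and MuvB proteins that shares the acronym.

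As background, cells license replication origins in G1 by loading the MCM helicase with ORC, *CDC6* and *CDT1*, and fire them in S phase with *CDC45*, the GINS complex and the DNA polymerases. Many of these genes are transcribed at the G1/S border by E2F factors. Genes of G2 and mitosis peak later, and many carry a cell cycle homology region, or CHR, together with CCAAT boxes bound by NF-Y, in their promoters. Levels of both groups of transcripts are used as a readout of proliferation. In bulk RNA, fewer cells in S phase or in G2 and mitosis cannot be told apart from less of each transcript per cell.

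Promoter letters were counted over the S-phase and the G2/M genes, a count that does not use the expression values, and 8 promoters that hold them are then printed to show how the letters are arranged. RefSeq promoters on GRCh38.p14, from 250 bases before to 50 bases after the transcription start, were matched by symbol for 40 of the 49 genes, 21 of S phase and 19 of G2/M. The E2F letters searched were TTCCCGC and TTGGCGC, the CHR letters TTTGAA, and the NF-Y letters CCAAT, each on both strands. E2F letters were present in 15 of 21 S-phase promoters (71.4%), in 2 of 19 G2/M promoters (10.5%) and in 9.33% of all 27305 promoters of the same length. CHR letters were present in 1 of 21 S-phase promoters (4.76%), in 12 of 19 G2/M promoters (63.2%) and in 15.4% of all promoters. CCAAT boxes were frequent in both, at 14 of 21 (66.7%) and 16 of 19 (84.2%), against 35.7% of all promoters. CHR letters together with at least 2 CCAAT boxes were found in 7 of 19 G2/M promoters (36.8%), in 0 of 21 S-phase promoters and in 1.83% of all promoters. Of the 25 E2F matches, 3 overlapped a CCAAT box, as did 1 of the CHR matches. A match is a run of letters and not a shown binding site. All promoters include those of genes that were not tested here. Of the 10944 tested genes outside the list with a RefSeq promoter, 1598 held E2F letters and 1014 held CHR letters. CHR letters with at least 2 CCAAT boxes were found in 154 of these 10944. The members without a RefSeq promoter in the table were *MCM4*, *MCM5*, *CCNE2*, *CCND1*, *AURKA*, *TTK*, *UBE2C*, *TPX2* and *BIRC5*.

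**Figure D1:**
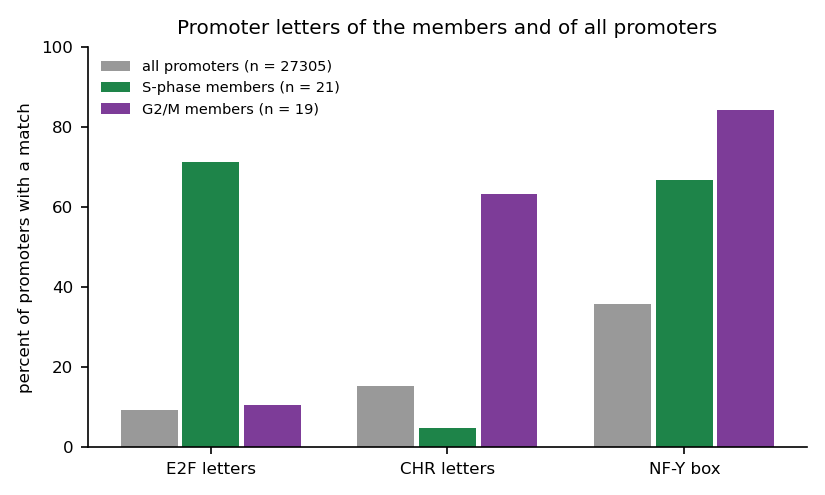
Percent of promoters (y axis) that hold E2F letters, CHR letters or a CCAAT (NF-Y) box, for all 27305 RefSeq promoters (grey), the 21 S-phase members (green) and the 19 G2/M members (purple) with a promoter in the table. E2F letters stand out in the S-phase members (71.4%) and CHR letters in the G2/M members (63.2%).

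The promoters printed were chosen by both the letters and the expression values, as those of the 4 members of each phase with the largest decrease with DREAM among those whose E2F letters (S phase) or CHR letters (G2/M) lie in the 200 bases before the transcription start. *TK1*, which fell most of the S-phase genes, held no E2F letters, and *KIF20A*, which fell most of the G2/M genes, held no CHR letters. *RRM2*, *MCM10*, *MCM2*, *CDC45*, *BUB1*, *CCNB1*, *CCNA2*, *AURKB*, *CDC25C* and *CENPE* also fell with DREAM without the letters of their phase. Whether the letters go with the size of the decrease was not tested. Each printed promoter runs 5′ to 3′ along the gene's strand, the last base being the one before the start, and capitals mark the E2F or CHR letters and the CCAAT boxes. They lie at chr16:88803589-88803788 on the plus strand for *CDT1*, chr1:52404424-52404623 on the minus strand for *ORC1*, chr20:5126623-5126822 on the minus strand for *PCNA* and chr2:135876444-135876643 on the minus strand for *MCM6*. In *CDT1* the E2F letters appear as a pair close to the start, in *PCNA* they sit between CCAAT boxes, in *ORC1* they run into an inverted CCAAT box, and in *MCM6* the other E2F form is present in 2 copies.
CDT1: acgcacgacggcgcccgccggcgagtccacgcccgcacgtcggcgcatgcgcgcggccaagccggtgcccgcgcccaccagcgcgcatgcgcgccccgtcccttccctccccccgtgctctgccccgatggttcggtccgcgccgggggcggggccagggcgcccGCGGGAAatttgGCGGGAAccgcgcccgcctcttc
ORC1: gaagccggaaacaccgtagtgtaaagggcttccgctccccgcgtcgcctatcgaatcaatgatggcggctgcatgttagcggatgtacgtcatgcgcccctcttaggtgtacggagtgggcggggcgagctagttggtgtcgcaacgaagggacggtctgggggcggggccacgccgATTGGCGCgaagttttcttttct
PCNA: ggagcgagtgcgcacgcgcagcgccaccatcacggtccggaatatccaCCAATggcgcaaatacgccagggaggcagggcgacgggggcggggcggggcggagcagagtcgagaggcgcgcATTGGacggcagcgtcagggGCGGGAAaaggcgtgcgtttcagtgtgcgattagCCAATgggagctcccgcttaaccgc
MCM6: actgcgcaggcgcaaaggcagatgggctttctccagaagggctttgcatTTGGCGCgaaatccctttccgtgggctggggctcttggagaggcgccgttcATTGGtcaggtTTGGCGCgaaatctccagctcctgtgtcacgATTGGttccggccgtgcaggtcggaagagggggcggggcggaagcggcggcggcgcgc

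The G2/M promoters lie at chr1:43358781-43358980 on the plus strand for *CDC20*, chr5:163460432-163460631 on the plus strand for *HMMR*, chr14:55191586-55191785 on the minus strand for *DLGAP5* and chr15:40160869-40161068 on the plus strand for *BUB1B*. Starts here are those of RefSeq. The gene span given with the CPM values of *HMMR* begins earlier, at 163460203, so its printed bases lie inside that span. Those of *DLGAP5* and *BUB1B* overlap their spans in part. In *HMMR* 2 CHR matches stand side by side just before the start, with 5 CCAAT matches upstream, of which a pair on opposite strands overlaps in CCAATTGG. In *BUB1B* a single CHR match begins 23 bases before the start with no CCAAT box.
CDC20: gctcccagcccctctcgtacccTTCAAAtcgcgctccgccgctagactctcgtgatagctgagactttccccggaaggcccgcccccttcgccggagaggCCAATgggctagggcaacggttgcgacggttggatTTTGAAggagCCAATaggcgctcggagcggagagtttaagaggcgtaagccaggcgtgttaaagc
HMMR: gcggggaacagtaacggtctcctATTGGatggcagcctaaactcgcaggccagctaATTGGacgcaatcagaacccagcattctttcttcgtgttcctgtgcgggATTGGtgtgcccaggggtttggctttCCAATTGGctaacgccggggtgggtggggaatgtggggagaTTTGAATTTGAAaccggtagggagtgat
DLGAP5: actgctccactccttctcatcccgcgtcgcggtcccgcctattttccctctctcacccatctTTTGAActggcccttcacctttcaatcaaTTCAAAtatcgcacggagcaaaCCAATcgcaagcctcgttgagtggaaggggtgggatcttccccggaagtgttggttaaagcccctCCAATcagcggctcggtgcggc
BUB1B: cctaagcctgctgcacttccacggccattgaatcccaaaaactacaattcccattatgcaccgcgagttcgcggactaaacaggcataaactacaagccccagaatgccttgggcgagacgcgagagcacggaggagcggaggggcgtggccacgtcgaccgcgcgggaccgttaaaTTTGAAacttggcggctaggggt

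Values are CPM, reads of a gene per 1000000 reads of its library, as scaled by the authors. Depth, estimated from the spacing of low values, was between 28.4 and 35.1 M reads per library, at which 3 reads are worth 0.0855 to 0.106 CPM. The HEK293 markers *KRT8*, *KRT18*, *VIM*, *NEFL*, *NEFM* and *LIN28B* were above 10 CPM in all 8 libraries, whereas *PAX2* was between 0.798 and 1.73 CPM. Of the markers of other cells, *CD34* was at most 0.429 CPM. *PECAM1*, an endothelial marker, had 0.0319 and 0.130 CPM in control libraries and 0.0572 and 0.0321 CPM with dCas9-VPR, but 0.569 and 0.456 CPM with DREAM and 1.03 and 1.17 CPM with SAM, the groups in which most members fell. *DES*, a muscle marker, had 0.479 and 0.554 CPM in control libraries, against 2.20 to 6.53 CPM in the other 6 libraries, and *KRT8* had 45.2 and 50.2 CPM in control libraries, against 78.5 to 113 CPM in the others. The part of *PECAM1*, *DES* and *KRT8* in the results was not tested. *PTPRC* and *ALB* were not among the 19770 genes with values, so their levels could not be checked. The fit was made by limma on log2(CPM + 0.5), which understates changes of genes with low values, and a gene was called at a false discovery rate (FDR) below 0.05 over the 15122 genes. Between the 2 libraries of a group, the log2 difference had a standard deviation over 9799 genes (mean of 10 CPM or more) of 0.136 in the control, 0.172 with DREAM, 0.142 with SAM and 0.115 with dCas9-VPR.

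Transcripts of most of the replication and mitosis genes were abundant in HEK293T cells. In the control, mean CPM ranged from 3.65 to 901 for the S-phase genes (median 182) and from 2.73 to 520 for the G2/M genes (median 86.8), against a median of 19.5 CPM over all genes tested. Per kilobase of the Gencode 44 reference transcript, the most abundant in the control were *MCM7* (365 CPM per kb), a subunit of the replicative helicase, *PCNA* (346 CPM per kb), the sliding clamp of the polymerases, and *BIRC5* (202 CPM per kb), which encodes survivin of the chromosomal passenger complex. The least abundant per kilobase were *CENPE* (0.319 CPM per kb), a kinetochore motor, *CENPF* (0.831 CPM per kb), a kinetochore protein, and *MKI67* and *CCND1* (both 0.860 CPM per kb), the genes of the Ki-67 antigen and of cyclin D1. Whether reads of these 4 genes were assigned to other features in the quantification was not tested. The lowest members therefore stood under 1 CPM per kb and the highest above 100, and low members carry wider intervals in what follows.

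Summed over the 25 S-phase genes, the level was 5038 and 5015 CPM in the control, 4032 and 3880 CPM with DREAM, 3892 and 3773 CPM with SAM and 4612 and 4578 CPM with dCas9-VPR. As a share of the control mean these were 78.7%, 76.2% and 91.4%. None of the 3 effector groups overlapped with the control in this sum, and the libraries of DREAM and SAM overlapped with each other. Summed over the 24 G2/M genes, the level was 3074 and 3186 CPM in the control, 2401 and 2347 CPM with DREAM, 2402 and 2357 CPM with SAM and 3190 and 3176 CPM with dCas9-VPR, or 75.9%, 76.0% and 102% of the control mean. The G2/M sum of dCas9-VPR thus overlapped with the control libraries, apart from DREAM and SAM. The ratio of the S-phase to the G2/M sum was 1.64 and 1.57 in the control, 1.68 and 1.65 with DREAM, 1.62 and 1.60 with SAM and 1.45 and 1.44 with dCas9-VPR, where both libraries lay below all 6 others. These sums are dominated by the most abundant members and are given with no test.

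**Figure D2:**
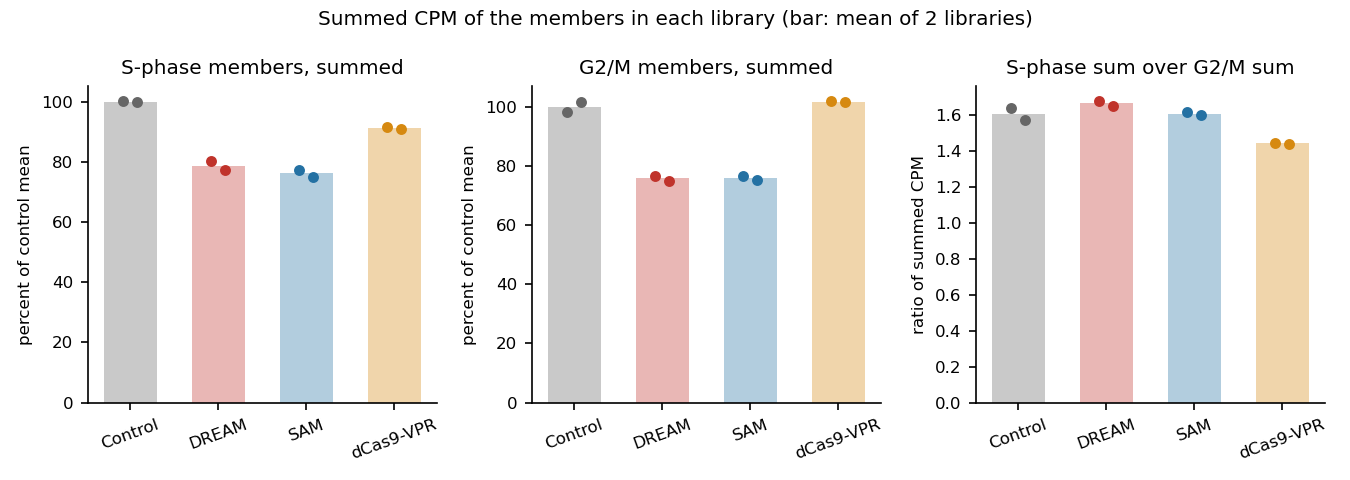
Summed CPM of the S-phase members (left) and the G2/M members (middle) in each library, as percent of the control mean, and the ratio of the S-phase to the G2/M sum (right), where points are libraries and bars are means of 2 libraries. DREAM and SAM libraries sit between 75.0% and 80.2% in both sums, and dCas9-VPR libraries are near 91% in S phase and near 102% in G2/M.

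Replication and mitosis transcripts were lower together with DREAM. Relative to the control, 39 of the 49 genes fell and 1 rose at an FDR below 0.05, against 9.25% of all genes tested that fell and 18.8% that rose (28% in either direction). Of the S-phase genes 19 fell and 1 rose, and of the G2/M genes 20 fell and 0 rose. The median log2 fold change was -0.36 over the S-phase genes and -0.41 over the G2/M genes, against 0.06 over all genes. Among genes of at least 10 CPM the share that fell was 10.5%, close to the share over all genes. Both DREAM libraries lay below both control libraries for 43 members, against 22.8% of all genes. A fold change of 1.5 was passed by 5 members, all of them lower, and by 8.99% of all genes in either direction. These shares are not alike, and nothing is read from them. A fold change of 2 was passed by 0 in limma at an adjusted or an unadjusted p below 0.05 (2.55% of all genes).

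With SAM, replication and mitosis transcripts were lower as well. Relative to the control 36 members fell and 1 rose, against 8.89% of all genes that fell and 35.7% that rose (44.6% in either direction). Of the S-phase genes 20 fell and 1 rose, and of the G2/M genes 16 fell and 0 rose, with medians of -0.39 and -0.35 against 0.16 over all genes. Both SAM libraries lay below both control libraries for 40 members, against 19.2% of all genes. Among genes of at least 10 CPM 10.9% fell. Again 5 members passed a fold change of 1.5, all of them lower, where 14.5% of all genes passed it in either direction. A fold change of 2 was passed by 0 in limma, with an unadjusted p below 0.05 as well (4.34% of all genes). The all-gene median moved from 0.16 to 0.0061 when the CPM values were rescaled by median-of-ratios, and the share of all genes that fell and rose became 19.4% and 19.5%. With that scaling 22 S-phase and 21 G2/M genes fell with SAM and 0 rose, and 21 and 20 fell with DREAM and 0 rose, where 13.7% of all genes fell and 14.1% rose. The comparisons with the control share the same 2 control libraries and are not independent of each other.

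With dCas9-VPR a smaller set of S-phase genes fell and no G2/M gene fell at this threshold. Relative to the control 10 members fell and 2 rose, against 6.68% of all genes that fell and 11% that rose (17.6% in either direction). All 10 that fell were S-phase genes, namely *MCM5*, *MCM7*, *MCM10*, *CDC6*, *CDT1*, *ORC1*, *CDC45*, *RFC2*, *TK1* and *E2F1*, and the 2 that rose were *RRM2* and *CCNB2*. The calls of *MCM5*, *MCM10*, *CDT1*, *ORC1*, *E2F1* and *RRM2* held in 12 of 17 alternatives each, that of *CCNB2* in 11 and the others in 13 to 17. Of the 24 G2/M genes 0 fell in the limma fit, and 8 had an unadjusted p below 0.05 in either direction, as did 5172 of the 15122 genes tested. The log2 fold change was above 0 for 17 of the 24 and below 0 for 7. Among genes of at least 10 CPM 7.34% fell. The median log2 fold change was -0.13 over the S-phase genes and 0.07 over the G2/M genes, against 0.06 over all genes. Both dCas9-VPR libraries lay below both control libraries for 18 of the S-phase genes and 3 of the G2/M genes, against 23.8% of all genes. In limma 0 members passed a fold change of 1.5 (4.44% of all genes) or, at an adjusted or unadjusted p below 0.05, of 2 (1.1% of all genes). The count of 12 called members fell to 1 when control replicate 2 was left out, to 7 when control replicate 1 was and to 2 with either dCas9-VPR library left out, was 18 without either DREAM library or in a fit to the 4 libraries compared, and was 28 with the replicate number as a block, and *TK1* was the 1 gene called in every alternative. After median-of-ratios scaling, where 9.05% of all genes fell and 7.8% rose, 13 S-phase genes fell and 1 rose, and 0 G2/M genes were called, so the rise of *CCNB2* was lost (log2 fold change 0.17, limma adjusted p = 0.0889).

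**Figure D3:**
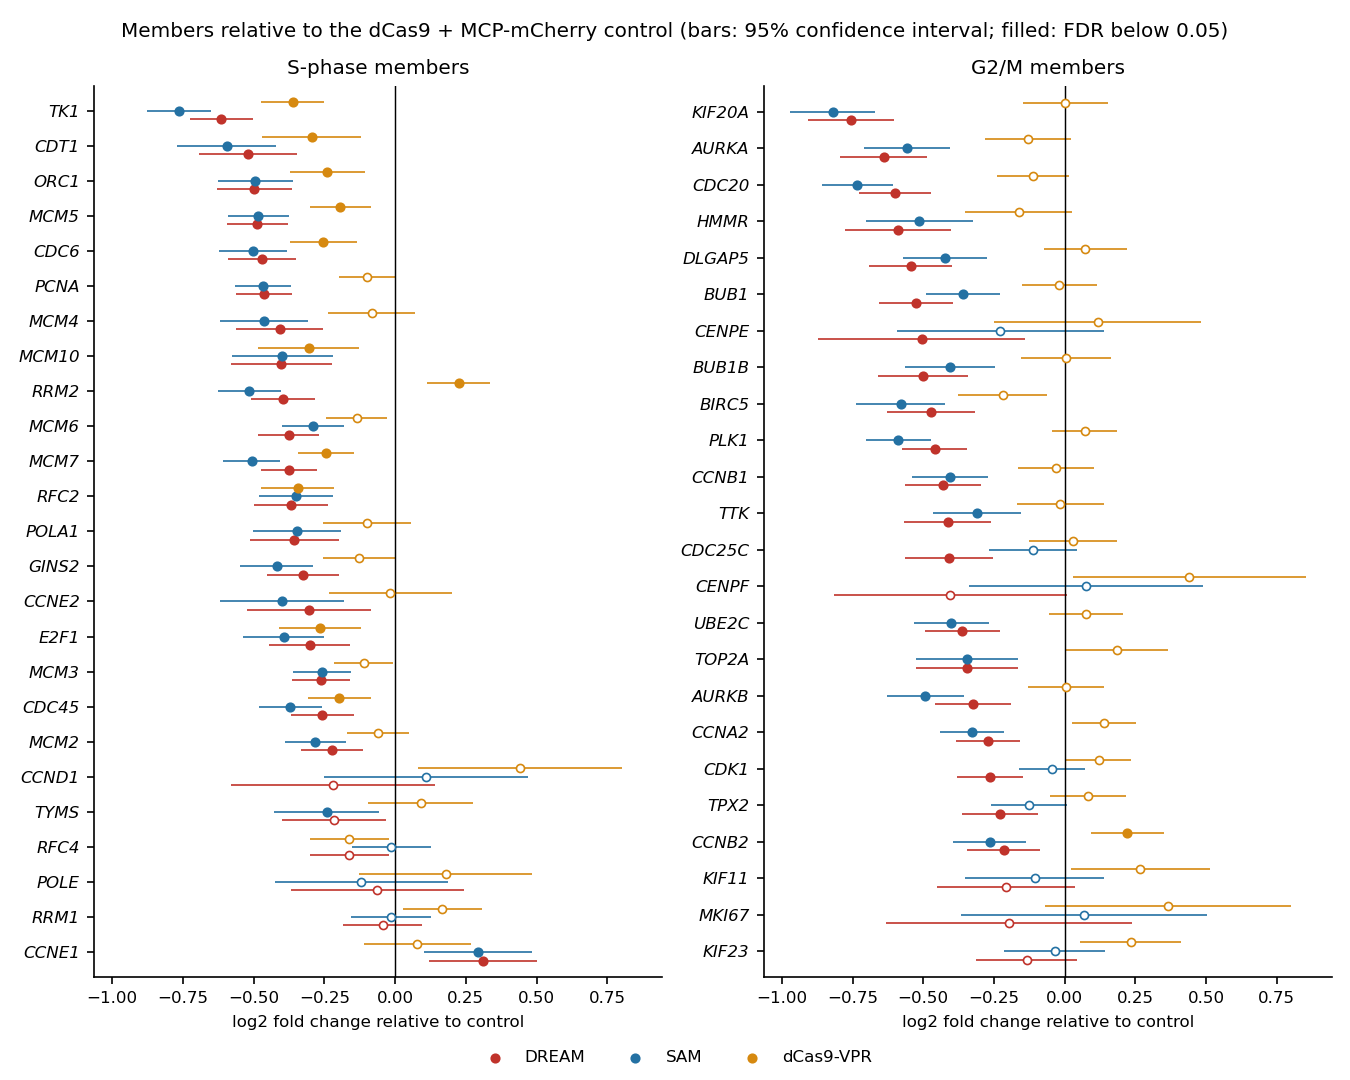
Log2 fold change of each S-phase member (left) and G2/M member (right) relative to the control with DREAM (red), the SAM system (blue) and dCas9-VPR (orange), with 95% confidence intervals from limma and filled points at an FDR below 0.05. DREAM and SAM points lie left of 0 for most members, whereas dCas9-VPR points lie left of 0 for part of the S-phase members and on either side of 0 for the G2/M members.

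All 12 licensing and helicase genes fell with DREAM and with SAM, with medians of -0.39 and -0.44. With dCas9-VPR 7 of the 12 fell, the median was -0.20, and both libraries lay below both control libraries for all 12. *CDT1*, a loader of the MCM helicase, was at 233 and 223 CPM in control libraries, 170.1 and 148 with DREAM, 161 and 141 with SAM and 190.3 and 181 with dCas9-VPR. It was highest in the control and intermediate with dCas9-VPR, with no overlap between these groups, and lowest with the other 2 systems, whose libraries overlapped. The log2 fold changes of *CDT1* were -0.52 with DREAM (95% confidence interval -0.69 to -0.35, limma adjusted p = 0.00102), -0.60 with SAM (limma adjusted p = 0.00033) and -0.30 with dCas9-VPR (limma adjusted p = 0.0287).

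*ORC1*, the largest subunit of the origin recognition complex, was at 61.2 and 60.4 CPM in control libraries, 43.1 and 42.7 with DREAM, 43.4 and 42.6 with SAM and 52.3 and 50.5 with dCas9-VPR. *MCM5*, a helicase subunit, was at 191 and 189 CPM in control libraries, 134 and 137 with DREAM, 135 and 137 with SAM and 164 and 169 with dCas9-VPR. In both genes the control libraries were highest, dCas9-VPR lay between, and DREAM and SAM were lowest and close to each other. *ORC1* changed by -0.50, -0.49 and -0.24 on the log2 scale with DREAM, the SAM system and dCas9-VPR (limma adjusted p = 0.000275, 0.000203 and 0.0228), and *MCM5* by -0.49, -0.48 and -0.19 (limma adjusted p = 8.57e-05, 7.49e-05 and 0.0232). *MCM7*, the most abundant member and another helicase subunit, was at 895 and 906 CPM in control libraries, 683 and 707 with DREAM, 632 and 635 with SAM and 744 and 778 with dCas9-VPR. Its control libraries were again the highest and its SAM libraries the lowest, with none of the 4 groups overlapping. *MCM7* changed by -0.37 on the log2 scale with DREAM (limma adjusted p = 0.000275), by -0.51 with SAM (limma adjusted p = 4.06e-05) and by -0.24 with dCas9-VPR (limma adjusted p = 0.00643).

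*MCM10*, which helps to activate the helicase, was at 80.7 and 80.4 CPM in control libraries, 65.7 and 56.4 with DREAM, 63.6 and 58.5 with SAM and 67.7 and 62.6 with dCas9-VPR. *MCM2*, an abundant helicase subunit, was at 392 and 382 CPM in control libraries, 338 and 326 with DREAM, 329 and 308 with SAM and 374 and 368 with dCas9-VPR. The *MCM10* control libraries stood above all 6 others, and those of *MCM2* stood furthest above DREAM and SAM. *MCM10* fell in all 3 comparisons (log2 fold changes -0.40, -0.40 and -0.31, limma adjusted p = 0.00479, 0.00303 and 0.0284), whereas *MCM2* fell with DREAM (-0.22, limma adjusted p = 0.00763) and SAM (-0.28, limma adjusted p = 0.00133) and was at -0.06 with dCas9-VPR (95% confidence interval -0.17 to 0.05). Over the whole group, which also holds *MCM3*, *MCM4*, *MCM6*, *CDC6*, *CDC45* and *GINS2*, log2 fold changes ranged from -0.52 to -0.22 with DREAM, from -0.60 to -0.26 with SAM and from -0.31 to -0.06 with dCas9-VPR.

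The genes of DNA synthesis were less uniform. Of the 5 genes of polymerases, clamp and clamp loader, 3 fell with DREAM and with SAM (*PCNA*, *RFC2* and *POLA1*), and 1 fell with dCas9-VPR (*RFC2*). *PCNA* was at 445 and 437 CPM in control libraries, 312 and 327 with DREAM, 320.0 and 318 with SAM and 409.7 and 415 with dCas9-VPR. *RFC2*, a subunit of the clamp loader, was at 207 and 222 CPM in control libraries, 171 and 162 with DREAM, 174 and 163 with SAM and 173 and 165 with dCas9-VPR. In *PCNA* the dCas9-VPR libraries lay nearer to the control, and in *RFC2* they lay with DREAM and SAM. *PCNA* had log2 fold changes of -0.46 (limma adjusted p = 7.44e-05), -0.47 (limma adjusted p = 5.96e-05) and -0.10 (95% confidence interval -0.20 to 0.00, limma adjusted p = 0.152), in the order DREAM, SAM and dCas9-VPR. *RFC2* had -0.37 (limma adjusted p = 0.00135), -0.35 (limma adjusted p = 0.00104) and -0.34 (limma adjusted p = 0.00442). DREAM and dCas9-VPR differed in *PCNA* by -0.37 (limma adjusted p = 0.00126) and in *RFC2* by -0.02 (95% confidence interval -0.15 to 0.11). *POLE*, the catalytic subunit of the leading strand polymerase, and *RFC4*, another clamp loader subunit, were not called in any comparison with the control.

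In nucleotide synthesis, *TK1*, thymidine kinase of the salvage pathway, fell with all 3 systems, and *RRM2*, the regulatory subunit of ribonucleotide reductase, went in opposite directions. *TK1* was at 242 and 257 CPM in control libraries, 161 and 165 with DREAM, 146 and 148 with SAM and 192 and 197 with dCas9-VPR. The 4 groups of *TK1* did not overlap, in the order control, dCas9-VPR, DREAM and SAM system from high to low, although DREAM and SAM differed by 0.15 on the log2 scale, short of the threshold (limma adjusted p = 0.0814). *TK1* fell by 34.7% with DREAM (log2 fold change -0.62, limma adjusted p = 2.45e-05), fell by 41.1% with SAM (-0.76, limma adjusted p = 7.89e-06) and fell by 22.2% with dCas9-VPR (-0.36, limma adjusted p = 0.00179). *RRM2* was at 183 and 183 CPM in control libraries, 139.8 and 138 with DREAM, 130.3 and 125 with SAM and 219 and 208 with dCas9-VPR. Its control libraries stood between, with DREAM and SAM below and both dCas9-VPR libraries above. *RRM2* fell by 24.0% with DREAM (limma adjusted p = 0.000371) and fell by 30.0% with SAM (limma adjusted p = 6.45e-05), and rose by 16.8% with dCas9-VPR (limma adjusted p = 0.0148). That rise was called in 12 of 17 alternatives. The difference from dCas9-VPR, tested directly, was -0.62 for DREAM (limma adjusted p = 0.000157) and -0.74 for SAM (limma adjusted p = 5.7e-05). *TYMS*, thymidylate synthase, fell with SAM (-0.24, limma adjusted p = 0.0367) and was at -0.22 with DREAM (limma adjusted p = 0.0774), and *RRM1*, the catalytic reductase subunit, was not called in any of these comparisons.

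The 4 regulators of G1/S did not move as 1 group. *E2F1*, a transcription factor of S-phase genes, was at 93.7 and 88.4 CPM in control libraries, 75.5 and 72.0 with DREAM, 71.5 and 66.8 with SAM and 73.0 and 78.4 with dCas9-VPR. Its control libraries stood above all 6 others, and it fell with DREAM (-0.30, limma adjusted p = 0.00677), the SAM system (-0.39, limma adjusted p = 0.000982) and dCas9-VPR (-0.27, limma adjusted p = 0.0209). *CCNE1*, which encodes cyclin E1, an activator of CDK2, was at 14.6 and 13.7 CPM in control libraries, 17.2 and 18.1 with DREAM, 17.2 and 17.7 with SAM and 14.8 and 15.1 with dCas9-VPR. It was the only member called higher with DREAM or the SAM system, and its libraries in these groups lay above those of the control and dCas9-VPR. The log2 fold changes of *CCNE1* were 0.31 (limma adjusted p = 0.0216) and 0.29 (limma adjusted p = 0.0189), and after median-of-ratios scaling they were 0.24 (limma adjusted p = 0.0547) and 0.13 (limma adjusted p = 0.24), so both calls were lost.

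*CCNE2*, the gene of cyclin E2, was at 20.9 and 19.9 CPM in control libraries, 16.9 and 16.0 with DREAM, 16.1 and 14.6 with SAM and 21.8 and 18.7 with dCas9-VPR. It went the other way from its paralog, with lower libraries in DREAM and SAM and with overlap between dCas9-VPR and the control. *CCNE2* fell with DREAM (-0.30, limma adjusted p = 0.0412) and SAM (-0.40, limma adjusted p = 0.00818), and the DREAM call held in 9 of 17 alternatives, with adjusted p-values of up to 0.162 in limma where it was lost. *CCND1*, the gene of cyclin D1, was scarce, at 3.71 and 3.58 CPM in control libraries, 2.61 and 3.58 with DREAM, 3.96 and 3.98 with SAM and 4.57 and 5.75 with dCas9-VPR. The *CCND1* libraries of the dCas9-VPR group were the highest, and those of DREAM lay at or under the lower control library. It was not called against the control (-0.22, 0.11 and 0.44), and DREAM libraries were lower than those of dCas9-VPR, at -0.66 (95% confidence interval -1.02 to -0.30, limma adjusted p = 0.0252).

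**Figure D4:**
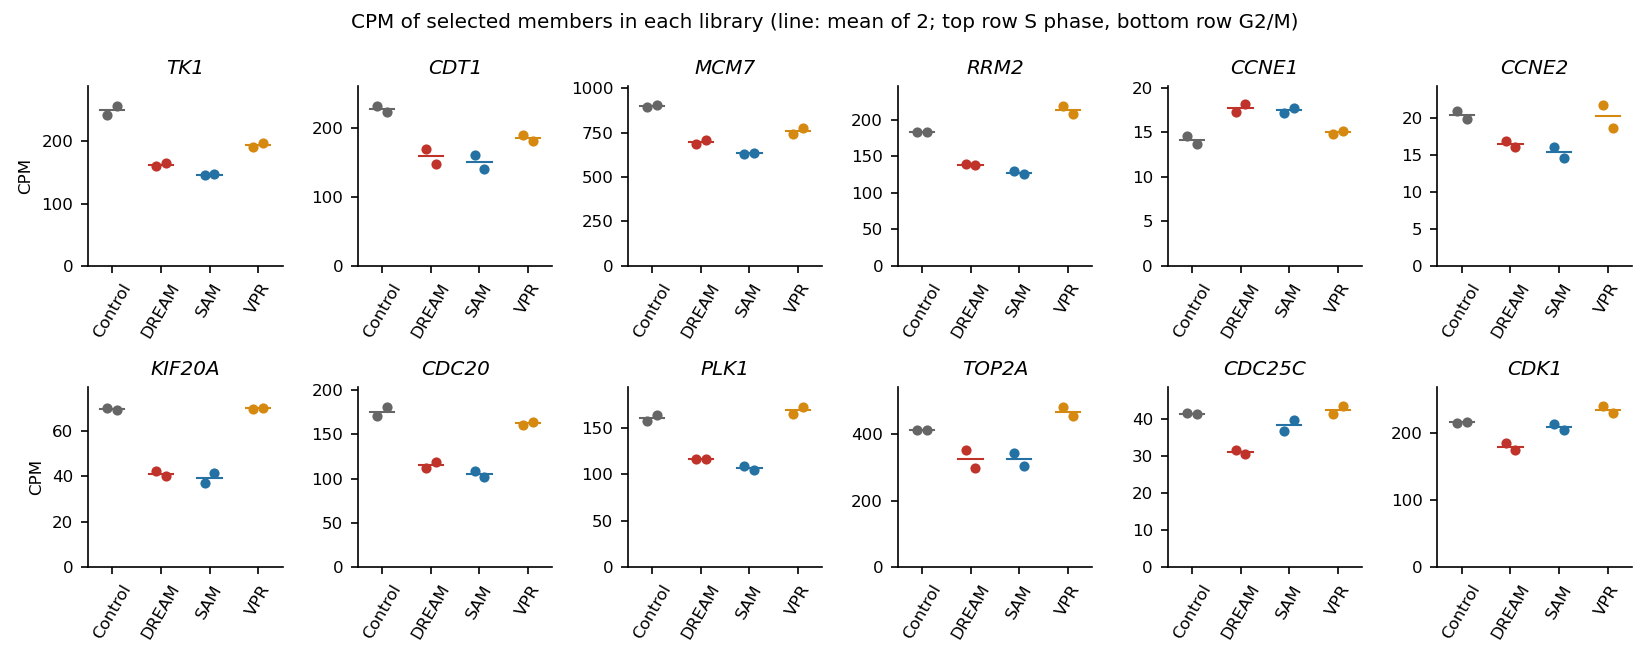
CPM of 6 S-phase members (top) and 6 G2/M members (bottom) in each library of the 4 groups, with points for libraries and lines for means of 2 libraries. *TK1*, *CDT1* and *MCM7* are lower in all 3 effector groups, *CCNE1* is higher with DREAM and SAM, *RRM2* is higher with dCas9-VPR, and *KIF20A*, *CDC20* and *PLK1* with dCas9-VPR stay at the control level or near it.

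Among the G2/M genes, the 8 mitotic cyclins, kinases and the phosphatase all fell with DREAM (median -0.37). With the SAM system 6 of the 8 fell (median -0.37), and with dCas9-VPR 0 fell and *CCNB2* rose (median 0.05). *AURKA*, a kinase of the spindle poles, was at 85.9 and 96.1 CPM in control libraries, 58.0 and 58.3 with DREAM, 60.6 and 62.5 with SAM and 80.1 and 86.2 with dCas9-VPR. *PLK1*, a kinase of mitotic entry and spindle assembly, was at 158 and 164 CPM in control libraries, 116 and 117 with DREAM, 109 and 105 with SAM and 165 and 172 with dCas9-VPR. In both genes the DREAM and SAM libraries stood well below the control, and the dCas9-VPR libraries overlapped with the control in *AURKA* and stood just above it in *PLK1*. *AURKA* fell by 35.8% with DREAM (limma adjusted p = 0.000132) and fell by 32.1% with SAM (limma adjusted p = 0.000221), and *PLK1* fell by 27.3% (limma adjusted p = 0.000184) and fell by 33.5% (limma adjusted p = 3.91e-05). With dCas9-VPR the log2 fold changes were -0.13 (95% confidence interval -0.28 to 0.02) and 0.07 (95% confidence interval -0.04 to 0.19). *CCNB2*, the gene of cyclin B2, was at 72.5 and 73.0 CPM in control libraries, 61.3 and 63.8 with DREAM, 62.1 and 58.9 with SAM and 83.9 and 86.0 with dCas9-VPR. Its groups below and above the control did not overlap with it, with changes of -0.22 (limma adjusted p = 0.0195), -0.26 (limma adjusted p = 0.00465) and 0.22 (limma adjusted p = 0.0272).

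Between DREAM and SAM 2 of the 49 members were called, *CDK1* and *CDC25C*, a smaller share than among all genes. *CDK1*, the kinase that drives mitosis, was at 215 and 216 CPM in control libraries, 184 and 174 with DREAM, 214 and 204 with SAM and 239.8 and 229 with dCas9-VPR. *CDC25C*, a phosphatase that activates it, was at 41.5 and 41.2 CPM in control libraries, 31.5 and 30.5 with DREAM, 36.8 and 39.7 with SAM and 41.2 and 43.3 with dCas9-VPR. In both genes the DREAM libraries were below all 6 others, and the SAM libraries lay between these and the control. *CDK1* fell with DREAM (-0.26, limma adjusted p = 0.00436) and was at -0.05 with SAM (limma adjusted p = 0.501), and *CDC25C* was at -0.41 (limma adjusted p = 0.00193) and -0.11 (limma adjusted p = 0.215). The direct comparison of DREAM with SAM gave *CDK1* at -0.22 (limma adjusted p = 0.0278) and *CDC25C* at -0.30 (limma adjusted p = 0.0264), with 0 higher, against 9.14% of all genes lower and 1.59% higher (10.7% in either direction). The medians between these systems were 0.03 over the S-phase and -0.09 over the G2/M genes, against -0.09 over all genes, and 0 members passed a fold change of 2 at an adjusted or unadjusted p in limma (0.721% of all genes). Both calls were lost after median-of-ratios scaling, which moved the all-gene median to 0.0014, the share of all genes lower to 3.87% and the share higher to 4.36%. *CDK1* and *CDC25C* then fell with SAM as well (-0.21, limma adjusted p = 0.00816, and -0.28, limma adjusted p = 0.0111), and *MCM7*, *RRM2*, *TK1* and *PLK1* were called higher with DREAM than with SAM (0.21 to 0.24). The count of 2 was 13 with the replicate number as a block, 0 without DREAM replicate 2 and without either SAM or either dCas9-VPR library, and 4 without DREAM replicate 1.

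All 5 genes of the spindle checkpoint and of the anaphase-promoting complex pathway, *BUB1*, *BUB1B*, *TTK*, *CDC20* and *UBE2C*, fell with DREAM (median -0.50) and with SAM (median -0.40), and 0 were called with dCas9-VPR in limma, where 0 had an unadjusted p below 0.05 (median -0.02). *CDC20*, the activator of the anaphase-promoting complex, was at 170.3 and 180.4 CPM in control libraries, 112 and 119 with DREAM, 108 and 102 with SAM and 160.1 and 164 with dCas9-VPR. Its DREAM and SAM libraries stood below the control and dCas9-VPR libraries with a wide gap. *CDC20* fell by 34.0% with DREAM (limma adjusted p = 6.29e-05) and fell by 39.8% with SAM (limma adjusted p = 1.94e-05), and its log2 fold change with dCas9-VPR was -0.11 (95% confidence interval -0.24 to 0.01). *BUB1*, a checkpoint kinase, had log2 fold changes of -0.52, -0.36 and -0.02 in the order DREAM, SAM and dCas9-VPR.

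Of the 11 genes of the spindle, kinetochore and chromosome structure, 7 fell with DREAM (median -0.40), 5 with SAM (median -0.23) and 0 with dCas9-VPR (median 0.12). With dCas9-VPR 5 of the 11 had an unadjusted p below 0.05 in limma in either direction, as did 5172 of the 15122 genes tested. The log2 fold change was above 0 for 9 of the 11. *KIF20A*, a kinesin of cytokinesis, had the largest decrease of the 49 genes with either MCP-based activator and was at 70.1 and 69.2 CPM in control libraries, 42.0 and 40.1 with DREAM, 37.2 and 41.4 with SAM and 69.6 and 70.0 with dCas9-VPR. The dCas9-VPR libraries of *KIF20A* lay among the control libraries, and the other 4 lay far below. Its log2 fold change was -0.76 with DREAM (95% confidence interval -0.91 to -0.60, limma adjusted p = 4.54e-05), -0.82 with SAM (limma adjusted p = 2.78e-05) and 0.00292 with dCas9-VPR (95% confidence interval -0.15 to 0.15). *HMMR*, a spindle-associated hyaluronan receptor, was at 77.9 and 87.1 CPM in control libraries, 59.1 and 50.4 with DREAM, 59.3 and 55.9 with SAM and 75.2 and 72.0 with dCas9-VPR, with the 4 DREAM and SAM libraries below the rest. It fell with DREAM (-0.59, limma adjusted p = 0.00076) and SAM (-0.51, limma adjusted p = 0.000987).

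*BIRC5*, the most abundant G2/M member, was at 489 and 549.9 CPM in control libraries, 353 and 395 with DREAM, 334 and 360.0 with SAM and 438 and 453 with dCas9-VPR. *TOP2A*, a topoisomerase that untangles chromosomes, was at 411 and 411 CPM in control libraries, 351 and 298 with DREAM, 344 and 304 with SAM and 481 and 453 with dCas9-VPR. The *BIRC5* libraries of all 3 effector groups lay below the control, dCas9-VPR least, whereas for *TOP2A* dCas9-VPR lay above it. *BIRC5* fell with DREAM (-0.47, limma adjusted p = 0.00094) and SAM (-0.58, limma adjusted p = 0.000213), and was at -0.22 with dCas9-VPR (limma adjusted p = 0.0568). *TOP2A* fell with DREAM (-0.34, limma adjusted p = 0.0109) and SAM (-0.35, limma adjusted p = 0.00687), and was at 0.18 with dCas9-VPR (limma adjusted p = 0.136). The 4 genes not called with DREAM were *MKI67*, *CENPF*, *KIF11*, a kinesin of spindle bipolarity, and *KIF23*, a kinesin of the midbody. *MKI67* was at 13.5 and 8.41 CPM in control libraries, 9.55 and 8.92 with DREAM, 12.0 and 10.4 with SAM and 15.7 and 12.2 with dCas9-VPR, so that the control libraries spanned most of the other values.

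Several of the least certain members have long transcripts. The 7 members with a reference transcript over 5 kb were *POLA1*, *POLE*, *TOP2A*, *MKI67*, *CENPE*, *CENPF* and *KIF11*. For 4 of these 7, replicate 1 was above replicate 2 in all 4 groups, against 9 of the other 42 members. The median difference of replicate 1 from replicate 2 over the 7 was 0.22, 0.23, 0.19 and 0.14 on the log2 scale in the control, DREAM, SAM and dCas9-VPR groups, and over the 42 shorter members it was between -0.02 and 0.05. The part of this difference in the calls of the long members was not tested.

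The difference between dCas9-VPR and the other systems was tested directly, and the control libraries entered these tests only through the estimate of the spread. With DREAM 35 members were lower than with dCas9-VPR and 0 were higher, against 5.21% of all genes lower and 7.9% higher (13.1% in either direction). Of the S-phase genes 12 of 25 were lower (median -0.22) and of the G2/M genes 23 of 24 (median -0.46), against a median of 0.02 over all genes, and *MKI67* was the G2/M gene not called. With the SAM system 37 members were lower than with dCas9-VPR and 0 higher, 17 of S phase (median -0.26) and 20 of G2/M (median -0.37), against 6.32% of all genes lower and 23.6% higher (29.9% in either direction) and a median of 0.10. After median-of-ratios scaling the counts were 14 and 22 with DREAM and 20 and 21 with SAM, where 6.28% and 13.5% of all genes were lower and 7.26% and 14.9% higher. A fold change of 1.5 was passed by 6 members with DREAM and 4 with SAM, all of them lower (3.53% and 8.8% of all genes in either direction). A fold change of 2 was passed by 0 in either at an adjusted or unadjusted p in limma (0.734% and 2.31% of all genes). The largest differences from dCas9-VPR with DREAM were in *CENPF* (-0.84, limma adjusted p = 0.0171), *KIF20A* (-0.76, limma adjusted p = 0.000315) and *CCND1* (-0.66), and *CENPF* had 7.02 and 5.65 CPM with DREAM and 14.0 and 9.82 CPM with dCas9-VPR. Without dCas9-VPR replicate 1 or 2 the 35 members became 18 or 16, and the 37 became 22 or 23, and without SAM replicate 2 the 37 became 21.

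Further lists of cell cycle genes were described by the same fit. Over all genes tested, 9.25%, 8.89% and 6.68% fell and 18.8%, 35.7% and 11% rose with DREAM, the SAM system and dCas9-VPR. Of 42 other mitosis genes, 34 fell with DREAM and 28 with SAM, 0 rose with either, and with dCas9-VPR 0 fell and 2 rose (medians -0.34, -0.28 and 0.01). *CDCA3*, a trigger of mitotic entry, had the largest decreases, -0.81 with DREAM (limma adjusted p = 0.000217) and -0.96 with SAM (limma adjusted p = 6.17e-05). The kinesin genes *KIF18A* (-0.71 with DREAM, limma adjusted p = 0.000301) and *KIFC1* (-0.69 with SAM, limma adjusted p = 2.78e-05) followed, and the 2 that rose with dCas9-VPR were *FAM83D* (0.33, limma adjusted p = 0.0156), a spindle protein, and *CDC25B* (0.30, limma adjusted p = 0.0274), a phosphatase. Of 40 other replication genes, 18 fell and 0 rose with DREAM, 14 fell and 1 rose with SAM, and 2 fell and 1 rose with dCas9-VPR (medians -0.21, -0.10 and -0.03), and the dCas9-VPR counts are not above the background. *FEN1*, the flap nuclease of Okazaki fragments, led in both (-0.45, limma adjusted p = 0.000167, and -0.43, limma adjusted p = 0.00017), followed by *UHRF1* with DREAM (-0.43, limma adjusted p = 0.00113), which maintains DNA methylation, and *GMNN* with SAM (-0.41, limma adjusted p = 0.000423), the inhibitor of *CDT1*. With dCas9-VPR *TIMELESS*, of the replication fork, rose (0.30, limma adjusted p = 0.00412) and *CDC25A*, a phosphatase of S-phase entry, fell (-0.27, limma adjusted p = 0.00655). In limma 0 of these genes passed a fold change of 2 relative to the control, also at an unadjusted p below 0.05.

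Of 20 transcription regulators of the cell cycle, 5 fell and 2 rose with DREAM, and 3 fell and 3 rose with SAM. With dCas9-VPR 2 fell and 0 rose (medians -0.09, 0.01 and 0.02 in this order). Of all genes 28%, 44.6% and 17.6% were called in either direction, and 9.25%, 8.89% and 6.68% fell. The 5 of 20 that fell with DREAM are a larger share than over all genes, but all of these counts are small, and nothing is read from them. *LIN37*, a subunit of the MuvB core that binds CHR elements, fell with all 3 systems, with log2 fold changes of -0.62, -0.57 and -0.83 (limma adjusted p = 0.00113, 0.00115 and 0.000671). *E2F8*, an atypical E2F repressor, fell with DREAM (-0.65, limma adjusted p = 0.00597) and SAM (-0.44, limma adjusted p = 0.0231), and its relative *E2F7* was at 0.34 with dCas9-VPR (limma adjusted p = 0.226). Of 17 CDK inhibitors and other brakes on the cell cycle, 10 fell and 1 rose with DREAM, 10 fell and 1 rose with SAM, and 4 fell and 2 rose with dCas9-VPR (medians -0.39, -0.27 and -0.07), against 9.25%, 8.89% and 6.68% of all genes that fell. *BTG2*, an antiproliferative gene, rose with all 3 systems, by 0.82, 0.76 and 0.73 (limma adjusted p = 6.54e-05, 8.29e-05 and 0.000437). *CDKN2C*, the gene of the CDK4 and CDK6 inhibitor p18, fell with DREAM (-0.66, limma adjusted p = 3.85e-05), and *GADD45B*, a stress-induced growth arrest gene, fell with SAM (-0.74, limma adjusted p = 0.00243) and dCas9-VPR (-0.59, limma adjusted p = 0.0205). *CDKN1A*, the gene of p21, which inhibits CDKs and was named after its values were seen, fell with DREAM (-0.48, limma adjusted p = 0.000271) and SAM (-0.48, limma adjusted p = 0.000201) and rose with dCas9-VPR (0.23, limma adjusted p = 0.0245). Its direct difference from dCas9-VPR was -0.71 for DREAM (limma adjusted p = 0.000157) and -0.71 for SAM (limma adjusted p = 0.000123).

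The members are scattered over 20 chromosomes, with at most 5 on any 1. The only members within 100 kb of each other were *TK1* and *BIRC5* (27.0 kb apart), *CDC6* and *TOP2A* (83.9 kb) and *KIF20A* and *CDC25C* (97.5 kb). In Gencode 44, exons of 10 members (*MCM7*, *GINS2*, *RFC4*, *TYMS*, *CCNE2*, *CCND1*, *CCNA2*, *CDC25C*, *PLK1* and *KIF20A*) overlap a protein-coding gene on the opposite strand. On the same strand, *BUB1B* overlaps *PAK6* and the gene listed as *BUB1B-PAK6*. The libraries were made with a stranded kit, but the use of strand in the quantification is not given in the sources used here, so the values of these 11 members could include reads of their partners.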

How the data were processed

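RNA-seq was performed on 8 libraries of HEK293T cells in 4 groups. Per the paper's methods, the authors made libraries with a stranded total RNA kit (the labels give polyA RNA as the molecule), aligned paired reads to hg38 (Gencode 36) with STAR 2.7.3a, quantified transcripts by a Bayesian approach and used DESeq2 for their own calls. The authors deposited CPM values (reads per 1000000) for each library, with 0.0001 added to each value. Between 65.9% and 71.6% of low values were whole multiples of 1 read (within 0.05), so read counts were not recovered and count models were not used.

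Genes reaching 1 CPM in 2 or more libraries (15122) were analysed on the log2(CPM + 0.5) scale by limma (3.58.1, R 4.3.3), with trended and robust empirical Bayes, 1 model for the 4 groups, 4 residual degrees of freedom and Benjamini-Hochberg adjustment. The fit was tested on simulated data. The replicate number was not used as a block. The members, role groups and other lists were chosen with earlier results of these data known. Members were named with values in every library if among the 4 largest called changes per phase and comparison with the control, among the 3 most abundant per phase, or one of *CCNE1*, *CCNE2*, *CCND1*, *CDC25C* and *E2F1*. In the other lists the 2 largest changes per comparison were named. Transcript lengths and overlaps came from Gencode 44 and promoters from RefSeq. Alternatives were other pseudocounts, filters, scalings, fits and thresholds, and leaving out each library.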

Additional observations from a re-analysis of the deposited data

How the results depend on the processing

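No called member and neither phase median changed direction relative to the control in any alternative run. Members not called and near 0 could change sign, as *KIF20A* with dCas9-VPR, at 0.00292 and after median-of-ratios scaling at -0.053. Of the called members, 32 of the 40 members called with DREAM, 32 of the 37 with SAM and 1 of the 12 with dCas9-VPR (*TK1*), each relative to the control, were called in every one of 17 alternatives. Those lost in at least 1 were *CCNB2*, *CCNE1*, *CCNE2*, *CENPE*, *E2F1*, *MCM2*, *TOP2A* and *TPX2* with DREAM and *CCNE1*, *CCNE2*, *TOP2A*, *TTK* and *TYMS* with SAM. Median-of-ratios scaling moved the median log2 fold change of the S-phase genes to -0.43, -0.56 and -0.18 and of the G2/M genes to -0.48, -0.52 and 0.016 with DREAM, SAM and dCas9-VPR, and gave 4 calls between DREAM and SAM. With a fold change above 1.5 in place of 2, the members past it were 5 and 5 with DREAM and SAM relative to the control, and 6 and 4 relative to dCas9-VPR. Without the trend and robust options, the calls were 2 for dCas9-VPR relative to the control, 0 between DREAM and SAM and 23 for DREAM relative to dCas9-VPR, and a fit to only the 4 libraries compared gave 0 between DREAM and SAM. Leaving out 1 library at a time gave 1 to 18 calls for dCas9-VPR relative to the control, 0 to 4 between DREAM and SAM, 16 to 36 and 21 to 39 for DREAM and SAM relative to dCas9-VPR, and 0 to 1 past a fold change of 2 for DREAM relative to dCas9-VPR. The S-phase medians then ranged from -0.37 to -0.30 with DREAM and from -0.41 to -0.34 with SAM. Where a library is left out, the lone sample of its group is assumed to vary like the other groups. The causes of these shifts were not tested.

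With the replicate number as a replicate block, 28 members were called for dCas9-VPR relative to the control and 13 between DREAM and SAM, and the other 4 comparisons stayed within 1.5 times (44 and 38 for DREAM and SAM relative to the control, 44 and 44 relative to dCas9-VPR). The labels do not say what the numbers mark. Differences of replicate 1 from 2 correlated between groups at 0.133 to 0.326 over 15122 genes, and 2 numbers do not establish pairing. Intervals were widest for the scarce members *CENPE*, *CENPF*, *MKI67* and *CCND1*.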

Other observations

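Genes outside the list were described by the promoter letters that mark the members. Of 10944 tested genes that are not members and have a RefSeq promoter, 9.51% fell with DREAM, 8.94% with SAM and 6.69% with dCas9-VPR, each relative to the same control libraries. Of the 154 with CHR letters and at least 2 CCAAT boxes, 44 fell with DREAM (28.6%), 39 with SAM (25.3%) and 12 with dCas9-VPR (7.79%). Of the 1014 with CHR letters, with or without CCAAT boxes, 15.7%, 10.7% and 7.59% fell, and of the 1493 with at least 2 CCAAT boxes, with or without CHR letters, 16.7%, 17.1% and 8.77%. Of the 1598 with E2F letters, 12.2%, 11.3% and 8.26% fell. The median log2 fold changes of the genes with E2F letters were 0.02, 0.10 and 0.05, and those of the 154 genes were -0.13, -0.02 and 0.05. After median-of-ratios scaling the shares of the 154 genes that fell were 39.6%, 42.2% and 13.6%, against 14.4%, 20.3% and 9.41% of the 10944. These shares are descriptions, and the 154 genes were not tested as a set. They may include genes of the further mitosis list above.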
